A study of Sus scrofa with 5 samples.

Results

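The let-7 family of the pig was described in small RNA libraries of blastocysts and cultured cells. Its members were taken by name from the deposited table of reported miRNAs, as every mature name that begins with ssc-let-7 together with ssc-miR-98. The rule gave 9 of the 411 mature names, namely ssc-let-7a, ssc-let-7c, ssc-let-7d-5p, ssc-let-7d-3p, ssc-let-7e, ssc-let-7f, ssc-let-7g, ssc-let-7i and ssc-miR-98. Each of the 9 had a read in each of the 5 libraries, and each passed the filter of more than 5 reads in at least 3 libraries, which 279 of the 327 names with any read passed. let-7d-3p, with 1 and 3 reads in the blastocyst libraries, passed the filter only through the 3 cultured libraries, where it was higher.

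The 5 libraries were from Sus scrofa and were made from miRNA extracts. BL_1 and BL_2 were pools of day 7 blastocysts obtained by parthenogenetic activation, that is, from oocytes activated without sperm, so they hold inner cell mass and trophectoderm together. ES-like cells were an embryonic stem cell-like line derived from blastocysts, cultured with stem cell factor and basic fibroblast growth factor on mitomycin-C-treated mouse embryonic fibroblasts. Pig embryoid bodies (PEBs) were made from colonies of the ES-like cells in hanging drops without the cytokines, and pig fetal fibroblasts (PFFs) were grown from fetal tissue from which head, limbs and internal organs had been removed. The media of ES-like cells and PFFs held fetal bovine serum, which was added to that of the embryos late in culture. There were 2 libraries of BLs and a single one of each kind of cultured cell.

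The let-7 miRNAs are a family of paralogous small RNAs that share a seed, the stretch near the 5′ end through which a miRNA recognizes its target mRNAs, and differ from each other at few positions outside it. miR-98 carries the same seed under a separate name. In mammalian pluripotent cells the RNA-binding protein LIN28 blocks the maturation of let-7 precursors, and mature let-7 accumulates as cells differentiate, where it represses mRNAs such as those of LIN28 itself, HMGA2, MYC and RAS genes. let-7d-3p is the exception among the 9 members: it comes from the opposite arm of the let-7d hairpin and does not have the let-7 seed.

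The 9 mature miRNAs came from 10 precursors. let-7a and let-7f had 2 precursors each, let-7d gave both of its arms, and the others had 1. All 10 were found by name in the RefSeq annotation, which was used only for names and neighbours because its assembly is not the one on which the reads were counted. There, let-7a-2, let-7f-2 and let-7d lay within 50 kb of each other, as did let-7f-1 and miR-98. let-7a-1 had miR-100 and miR-125b-1 as neighbours, let-7c had miR-99a, and let-7e had miR-99b and miR-125a. let-7g and let-7i had no other let-7 precursor and none of these miRNAs near them.

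Depth differed between the libraries, since BL_1 and BL_2 held 113743 and 2782150 mature miRNA reads, ES-like cells 6372500, PEBs 15849954 and PFFs 27071931. A summary of the sequencing by the authors lists the mature read totals of ES-like cells and PFFs the other way round. The names of the count columns, which match the labels, were followed here, and every value of these libraries rests on them. Under those names, fibroblast-associated markers were higher, and markers of the early embryo lower, in PFFs than in ES-like cells, with the values given below. Levels were scaled to 1000000 mature miRNA reads of the library (RPM), so that 1 read was worth 8.79 RPM for BL_1 and 0.0369 for PFFs. All levels below are RPM unless another scale is named, and their intervals cover counting error only, because amplified reads are not independent molecules. A single miRNA took 52.3% of the reads of PFFs (ssc-miR-21), 32.5% of BL_1 and 29.6% of BL_2 (ssc-miR-371-5p), which lowers the RPM of the other miRNAs in those libraries. The 6 mesenchymal and fibroblast-associated markers, miR-21 among them, summed to 3.88 and 7.02% of the reads of BL_1 and BL_2, 21.3% of ES-like cells, 32.0% of PEBs and 70.4% of PFFs, with miR-145-5p and miR-214 at 0 reads in BL_1. The 7 markers associated with pluripotency and the early embryo had the opposite order, from 38.1% in BL_1 and 34.7% in BL_2 through 14.7% in ES-like cells and 7.6% in PEBs to 0.948% in PFFs. Of the 5 epithelial markers, miR-205 alone was in the table, at 4748 and 5753 RPM in BL_1 and BL_2 and at most 71.7 RPM in the other libraries. The 4 blood cell-associated markers summed to at most 84.5 RPM in any library.

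The first question was how much let-7 each cell type contained. The family was lowest in blastocysts, higher in ES-like cells and higher again in PEBs and PFFs. The order of PEBs and PFFs depends on the scaling, as does the size of the step from blastocysts to ES-like cells. Members of the family together had 1978 reads in BL_1 and 34923 in BL_2, or 17390 and 12553 RPM. The mean of these 2 libraries was 14971 ± 3421 RPM (SD, n = 2). ES-like cells had 29188 RPM, PFFs had 47725 RPM and PEBs had 79964 RPM. The 2 blastocyst libraries lay below the 3 cultured ones, and ES-like cells, at 2.92% of their mature reads, lay between blastocysts and both kinds of differentiated cells. With TMM, edgeR's scaling of counts by trimmed means, PFFs exceeded PEBs (79134 against 70926 per 1000000). They did so too with DESeq2's size factors (69704 against 58723) and with the most abundant miRNA left out of the total (100012 against 98569). ES-like cells stood closer to blastocysts on the first 2 of these scales. With TMM they had 18376 per 1000000, against 16297 in BL_1 and 14466 in BL_2. With DESeq2's size factors they had 21072, against 20688 in BL_1 and 13627 in BL_2. The mean of PEBs and PFFs exceeded that of the 3 pluripotent libraries by 44135 RPM, and the mean of the 3 cultured libraries exceeded that of BLs by 37321 RPM. Each difference had p = 0.2 in a two-sided exact permutation test over the libraries, with the one-sided p multiplied by 2, and 0.2 is the smallest p that the 10 arrangements of 2 libraries against 3 can give by that rule. The summed mesenchymal markers had the same order from BLs through ES-like cells to PEBs, and from PEBs to PFFs they went with the family total on those 3 scales but not on RPM. Their part in the let-7 levels was not tested. In these bulk libraries, fewer let-7-expressing cells and less let-7 per cell cannot be told apart.

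**Figure D1:**
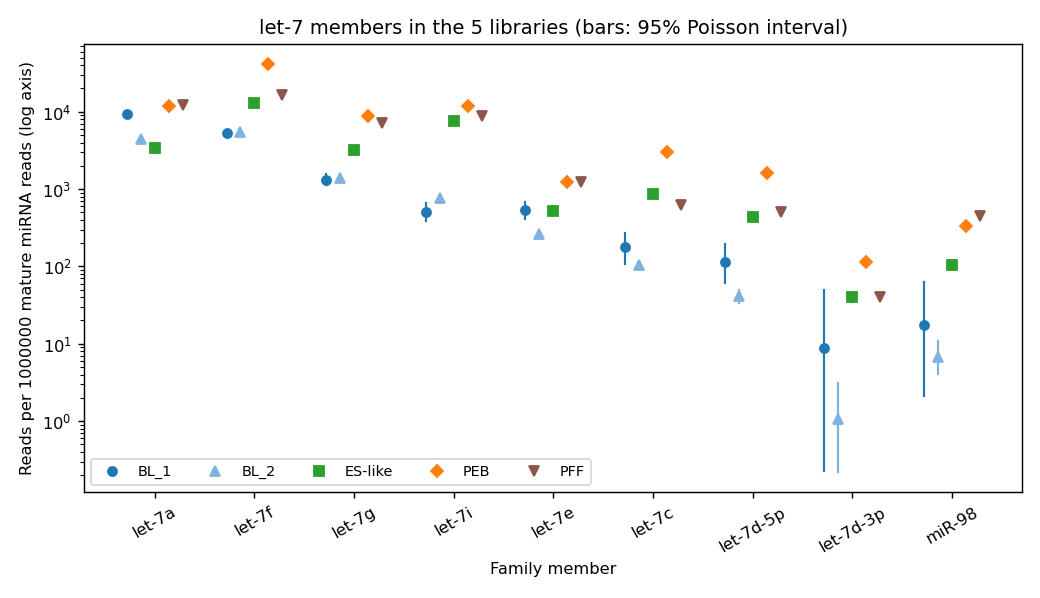
Level of each let-7 member in each library, in RPM on a log axis, with bars for 95% Poisson intervals of counting error (bars smaller than the symbol are hidden). For let-7i both blastocyst libraries, at most 776 RPM, sit below the lowest cultured library at 7534 RPM, while for let-7a ES-like cells at 3359 RPM sit below both blastocyst libraries.

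let-7a and let-7f were the most abundant members of blastocysts. BL_1 and BL_2 had 9390 and 4448 RPM of let-7a, ES-like cells had 3359, PEBs 12028 and PFFs 12316. It was lowest in ES-like cells, below both blastocyst libraries, and on RPM its levels in PEBs and PFFs differed by less than the SD of 3494 RPM between the blastocyst libraries, whereas with TMM it was higher in PFFs (20421 against 10669 per 1000000). Of let-7f, BL_1 and BL_2 had 5319 and 5511 RPM, ES-like cells had 13140, PEBs 40919 and PFFs 16557. For let-7f the blastocyst libraries differed by little (5415 ± 136 RPM, SD, n = 2) and lay below all 3 cultured libraries, with PEBs the highest. PEBs and PFFs were closer with TMM (36294 and 27454 per 1000000). Among all reported miRNAs, let-7f held rank 20 in both blastocyst libraries, rank 14 in ES-like cells and rank 7 in PEBs and in PFFs.

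Both of these members were counted on 2 precursors, and the rows of one miRNA had similar counts. For let-7f the smaller row held 99.7% of the larger in BL_1 and 91.7% in ES-like cells, the lowest of the 5 libraries. For let-7a the rows were also close in BL_1, BL_2 and PFFs, where the smaller held 93.5%, 88.5% and 92.0% of the larger. In ES-like cells the let-7a-1 row held 13288 reads and the let-7a-2 row 8117, and in PEBs they held 111968 and 78681. Whether a read was counted on both precursors is not given in the sources used here, and if it was, the sums for let-7a and let-7f are up to 2 times too high relative to the 7 members with a single row. Values for the larger row alone are given where they change what is said.

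let-7g and let-7i, each with 1 precursor, completed the 4 most abundant members, except in BL_1, where let-7e was just above let-7i. In ES-like cells let-7i came second, above let-7a. let-7g, which in other mammals is processed from an intron of the WDR82 gene, stood at 1319 and 1403 RPM in BL_1 and BL_2. ES-like cells had 3205 RPM of it, PEBs 8718 and PFFs 7169. Its blastocyst libraries lay close together (1361 ± 59.7 RPM, SD, n = 2), and the cultured libraries were all above them. BL_1 and BL_2 had 509.9 and 776 RPM of let-7i, ES-like cells had 7534, PEBs 11960 and PFFs 8837. This member set blastocysts apart from cultured cells, while the 3 cultured libraries were within a factor of 1.59 of one another on RPM. With TMM they were farther apart, since ES-like cells had 4743 per 1000000, PEBs 10608 and PFFs 14652, again all above the blastocyst libraries at 478 and 895. In BL_1 let-7i rested on 58 reads, with a 95% Poisson interval of 387 to 659 RPM.

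let-7e and let-7c lie in clusters of like build, each beside a miRNA of the miR-99 family. The level of let-7e was 536 and 262 RPM in BL_1 and BL_2, and ES-like cells had 514, PEBs 1235 and PFFs 1239. ES-like cells fell between the blastocyst libraries for let-7e, and PEBs and PFFs were nearly equal above them. BL_1 and BL_2 had 176 and 103 RPM of let-7c, ES-like cells had 862, PEBs 3059 and PFFs 615. It was thus highest in PEBs and, on this scale, lower in PFFs than in ES-like cells.

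let-7d-5p and let-7d-3p, the 2 arms of 1 hairpin, were rare in blastocysts. BL_1 and BL_2 had 114 and 41.3 RPM of let-7d-5p, ES-like cells had 431, PEBs 1599 and PFFs 504. For let-7d-3p, BL_1 and BL_2 had 1 and 3 reads, ES-like cells had 39.9 RPM, PEBs 113 and PFFs 39.8. Both arms followed the order of let-7c in being highest in PEBs. ES-like cells had 8.08 times the mean RPM of the blastocyst libraries for let-7d-3p, a log2 ratio of 3.01 that was 5.21 without BL_1, 2.18 without BL_2 and 1.74 with 10 RPM added to both sides. Against the 4 blastocyst reads pooled, which weights BL_2 by its depth, the ratio was 28.9 (95% exact interval for counting error 11.1 to 107). The 5p arm had 10.8 reads for each 3p read in ES-like cells (95% exact binomial interval 9.51 to 12.3), 14.2 in PEBs (13.5 to 14.9) and 12.7 in PFFs (11.9 to 13.5). The interval of PEBs did not overlap those of the other cultured cells, but each of these cell types had 1 library. In BLs the ratio was 13.0 in BL_1 (1.95 to 552) and 38.3 in BL_2 (12.8 to 189). The interval of BL_2, on 3 reads of the 3p arm, lay above that of ES-like cells and overlapped those of PEBs and PFFs, and that of BL_1 overlapped all 3.

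miR-98 was the rarest of the members with the let-7 seed in each of the 5 libraries. It had 2 reads in BL_1 and 19 in BL_2, or 17.6 and 6.83 RPM, while ES-like cells had 104 RPM, PEBs 334 and PFFs 447. The cultured libraries were all above the blastocyst libraries, and PFFs were highest. ES-like cells had 8.51 times the mean RPM of the blastocyst libraries for miR-98, PEBs 27.3 times and PFFs 36.6 times. The log2 ratios of 3.09, 4.77 and 5.20 were 3.93, 5.61 and 6.03 without BL_1, and 2.36, 3.95 and 4.36 with 10 RPM added to both sides. Against the 21 blastocyst reads pooled, again weighted towards BL_2, ES-like cells had 14.3 times as much (95% exact interval 9.29 to 23.3), PEBs 46.0 times (30.1 to 74.4) and PFFs 61.7 times (40.3 to 99.6).

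The blastocyst libraries showed how far members of the family can move apart between replicates. let-7a was 2.11 times, let-7e 2.05 times and let-7d-5p 2.77 times as high in BL_1 as in BL_2, and for each of them the Poisson intervals of the libraries did not overlap. let-7f and let-7g were nearly equal, at 0.965 and 0.94 times. let-7i was lower in BL_1, at 0.657 times, again with intervals that did not overlap. For let-7c, let-7d-3p and miR-98 the intervals overlapped. Replicates of blastocysts thus differed in single members by more than counting error, and differences of about 2-fold between cell types with 1 library each are of that size.

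The second question was how the family was composed. A member's share of the family reads does not depend on the scaling between libraries. let-7a, let-7f, let-7g and let-7i together held from 92.1% of the family in PEBs to 96.7% in BL_2, and the other 5 members held the rest. let-7a took 54.0% of the family reads in BL_1 (95% Wilson interval 51.8 to 56.2%) and 35.4% in BL_2 (34.9 to 35.9%), but 11.5% of those of ES-like cells, 15.0% of PEBs and 25.8% of PFFs. let-7i took 2.93% in BL_1 (2.28 to 3.77%) and 6.19% in BL_2 (5.94 to 6.44%), but 25.8% of ES-like cells, 15.0% of PEBs and 18.5% of PFFs. In both libraries the blastocyst family was therefore rich in let-7a and poor in let-7i compared with that of the cultured cells. In its share of let-7a, however, BL_2 was nearer to PFFs than to BL_1. let-7a reads outnumbered let-7i reads 18.4 to 1 in BL_1 and 5.73 to 1 in BL_2, whereas ES-like cells had a ratio of 0.446, PEBs of 1.01 and PFFs of 1.39. With the larger precursor row alone the ratios were 9.52, 3.04, 0.277, 0.591 and 0.726, and blastocysts again did not overlap with the cultured cells.

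let-7f was the leading member in 4 libraries, with 43.9% of the family reads in BL_2. ES-like cells had 45.0% of let-7f, PEBs 51.2% and PFFs 34.7%. It came after let-7a in BL_1 with 30.6%. With the larger row alone, let-7i led in ES-like cells at 34.8% and in PFFs at 26.3%, so that the order of let-7f and let-7i there depends on the handling of the precursors. let-7g had shares from 7.58% in BL_1 to 15.0% in PFFs, and with the larger row alone from 12.9% in BL_1 to 21.3% in PFFs. The share of miR-98 was 0.101 and 0.0544% for BL_1 and BL_2, while ES-like cells had 0.356%, PEBs 0.417% and PFFs 0.937%. let-7c had its largest shares in PEBs, at 3.83%, and ES-like cells, at 2.95%, against 1.29% in PFFs and at most 1.01% in BLs. ES-like cells and the PEBs made from them had the most similar composition of any pair, since 11.1 percentage points of family reads would have to be assigned to other members to make them equal. BL_1 and BL_2 differed by 20.2 points and PEBs and PFFs by 20.0, so the distance between the latter was no larger than that between replicates. From BL_1, the distances were 43.8 points to ES-like cells, 40.5 to PEBs and 28.7 to PFFs, and from BL_2 they were 24.4, 21.2 and 18.8. With the larger row alone those from BL_2 were 29.5, 20.9 and 22.7, so that PEBs rather than PFFs were the nearest cultured library to it.

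**Figure D2:**
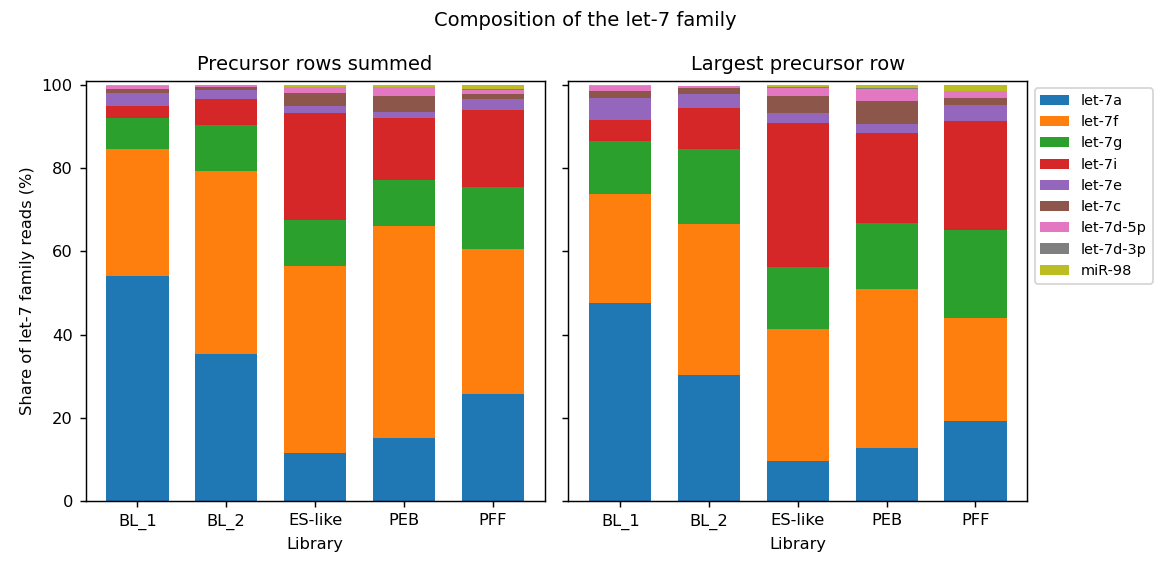
Share of each member in the let-7 family reads of each library, in percent, with the 2 precursor rows of let-7a and let-7f summed (left) or with the larger row alone (right). let-7a fills 54.0% and 35.4% of the bars of BL_1 and BL_2 on the left and at most 25.8% of the others, while let-7i fills at most 6.19% in blastocysts and at least 15.0% in cultured cells.

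The third question was how each member differed from one cell type to the next. Since ES-like cells, PEBs and PFFs had 1 library each, ratios are given without a test, and the 2-fold rule of the study was used as a count. From BLs to ES-like cells, 7 of the 9 members were more than 2-fold higher, as were 55.6% of the 279 miRNAs, so that the count is to be read against a high background. let-7i stood at 11.7 times the mean of the blastocyst libraries, let-7c at 6.18 times and let-7d-5p at 5.54 times, a log2 ratio of 2.47 for the last that was 3.38 without BL_1. let-7f and let-7g stood at 2.43 and 2.36 times that mean, close to the median of all 279 miRNAs, and neither passed the rule with TMM (log2 ratios of 0.55 and 0.50), DESeq2's size factors (0.62 and 0.58) or the most abundant miRNA left out (0.99 and 0.95). let-7i, let-7c and let-7d-5p still passed with TMM, at 2.79, 1.94 and 1.81. let-7e was 1.29 times as high, and its direction turned with TMM scaling (log2 ratio 0.36 on RPM, -0.31 with TMM). On RPM the log2 ratio of let-7e was 0.97 without BL_1 and -0.06 without BL_2. let-7a stood at 0.485 times the BL mean in ES-like cells, a log2 ratio of -1.04 that passed the rule, as did 20.8% of the miRNAs in that direction. With the larger row alone it was -0.78, and without BL_1 it was -0.41, neither of which passed. It passed with TMM and with DESeq2's size factors (-1.72 each), without the most abundant miRNA (-1.34) and without BL_2 (-1.48). Over the members the median log2 ratio was 2.47, against 1.14 over the 279 miRNAs, and with TMM the medians were 1.81 and 0.36, with 5 members more than 2-fold higher, against 45.9% of the miRNAs.

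All 9 members were higher in PEBs than in the ES-like cells they were made from. 8 of the 9 were more than 2-fold higher, against 20.8% of the 279 miRNAs, and none was more than 2-fold lower, against 23.7%. For these 8 the ratios ran from 2.4 for let-7e to 3.71 for let-7d-5p. let-7i had the smallest ratio, 1.59, and passed as well with TMM, by which 30.8% of the miRNAs were more than 2-fold higher. The median log2 ratio was 1.64 over the members and -0.23 over the 279 miRNAs. With a 4-fold threshold on RPM none of the 9 passed, against 4.3% of the miRNAs. With TMM, let-7a, let-7c, let-7d-5p, let-7f and miR-98 exceeded 4-fold (log2 ratios of 2.33, 2.32, 2.39, 2.13 and 2.18), and the other members did not. With DESeq2's size factors none did, the highest log2 ratio being 1.92. The share of all miRNAs past 4-fold was counted on RPM only.

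Between PEBs and PFFs the members differed in direction. 4 of the 9 were more than 2-fold lower in PFFs, against 45.5% of the 279 miRNAs, and none was more than 2-fold higher, against 14.0%. let-7c was 0.201 times, let-7d-5p 0.315 times, let-7d-3p 0.353 times and let-7f 0.405 times as high in PFFs as in PEBs. let-7a and let-7e were nearly equal in both on RPM (ratios of 1.02 and 1), though not with TMM (log2 ratios of 0.94 and 0.91) or, with the opposite sign, with the larger row alone (-0.35 and -0.20), and miR-98 was 1.34 times as high in PFFs. miR-98 passed the rule as higher in PFFs with TMM (log2 ratio 1.33), DESeq2's size factors (1.41) and without the most abundant miRNA (1.19). The median log2 ratio was -0.44 over the members and -0.78 over all miRNAs, and both change with the scaling. With TMM the member median was 0.47 and the median of all miRNAs 0.13, let-7g and let-7i turned from lower to higher in PFFs (log2 ratios of -0.28 and -0.44 became 0.62 and 0.47), and let-7c at -1.41 was the only member still more than 2-fold lower, against 33.0% of the miRNAs on that scale. let-7a also passed the rule as higher with DESeq2's size factors (log2 ratio 1.03).

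Against ES-like cells, 4 of the 9 members were more than 2-fold higher in PFFs on RPM, against 16.1% of the miRNAs, and 8 were with TMM, against 37.3%. None was more than 2-fold lower, against 53.0% of the miRNAs on RPM and 28.7% with TMM. The 4 were miR-98 at 4.3 times, let-7a at 3.67 times, let-7e at 2.41 times and let-7g at 2.24 times, with TMM log2 ratios of 3.5, 3.27, 2.67 and 2.56 in the same order. let-7c was lower in PFFs on RPM and higher with TMM (log2 ratios of -0.49 and 0.91), and let-7d-3p was level on RPM, at 0.998 times, and higher with TMM (log2 ratio 1.39). Relative to blastocysts, 8 of the 9 were more than 2-fold higher in PEBs and 8 in PFFs, against 54.8% and 40.1% of all miRNAs. Without let-7d-3p, which passed the filter only through the cultured libraries, they were 7 of 8 in each, and 6 of 8 in ES-like cells over BLs. None was more than 2-fold lower in either, against 23.3% and 35.1%. let-7a was the member that did not pass in either on RPM, at 1.74 and 1.78 times the blastocyst mean. Without BL_1 it passed in both, with log2 ratios of 1.44 and 1.47. In PFFs it also passed with TMM (1.55), with DESeq2's size factors (1.17) and without the most abundant miRNA (1.35), and in PEBs with the larger row alone (1.1).

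**Figure D3:**
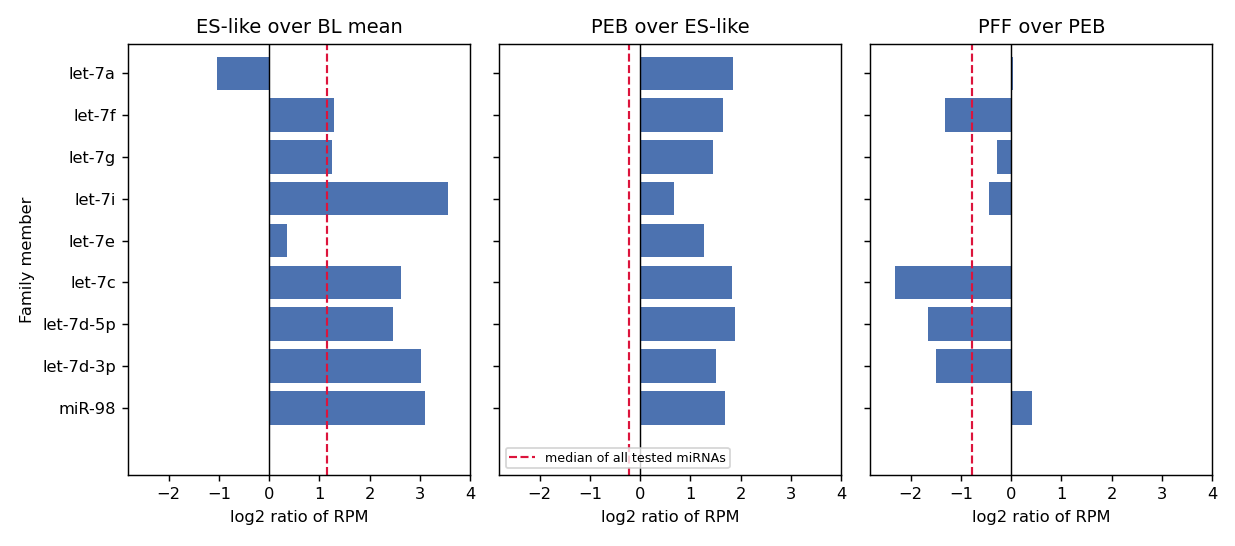
Log2 ratio of RPM for each member in ES-like cells over the mean of BL_1 and BL_2 (left), PEBs over ES-like cells (middle) and PFFs over PEBs (right), with the median of the 279 miRNAs as a dashed line. In the middle panel all 9 bars lie to the right of the median of -0.23, while on the left they reach from -1.04 for let-7a to 3.55 for let-7i.

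Where the libraries were grouped, the members could be compared with the spread between libraries. In 7 of the 9 members both PEBs and PFFs lay above all 3 pluripotent libraries on RPM, as in 16.1% of the 279 miRNAs. The exceptions were let-7c and let-7d-3p, for which PFFs did not exceed ES-like cells. With TMM the count was 9 of 9, against 24.0% of all miRNAs, and with DESeq2's size factors it was 8 of 9, all but let-7a, against 19.0%. In none of the 9 did both lie below the pluripotent libraries, as in 16.5% of the 279 miRNAs on RPM and 6.81% with TMM. In 7 of the 9 members, all but let-7a and let-7e, the 3 cultured libraries lay above both blastocyst libraries, as in 41.9% of the 279 miRNAs, and in none did they lie below, as in 21.5%. let-7d-3p, which passed the filter only through the cultured libraries, is among these 7. The filter can be met through the 3 cultured libraries alone, but not through the blastocyst libraries alone. Among the 279 miRNAs it therefore favours those higher in cultured cells.

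Blastocysts were tested against the 3 cultured libraries with edgeR's quasi-likelihood test on TMM-scaled counts over all 279 miRNAs, with Benjamini-Hochberg adjustment. 1 of the 9 members was called higher in cultured cells, against 5.38% of the 279 miRNAs, and none lower, against 6.45%. At an unadjusted p under 0.05, 6 of the 9 were higher, against 28.3%, and none lower, against 11.8%. Among the 6 is let-7d-3p, which passed the filter only through the cultured libraries. That count depended on the libraries, being 7 of 8 members without ES-like cells and 4 of 8 without PEBs or without PFFs. In the same order, 77 of 227, 64 of 224 and 104 of 229 miRNAs passed it in either direction. Fewer members still passed it without BL_1 or without BL_2, fits that leave 1 blastocyst library. In those fits the median log2 fold change was 2.82 and 2.77 over the members, against 0.48 and 1.97 over all miRNAs. The member called was let-7i, with a log2 fold change of 3.86 (SE 0.90, adjusted p = 0.0451), higher in 3 of 3 cultured libraries. Without BL_1 or BL_2 the adjusted p was 0.271 and 0.202 (log2 fold changes 2.82 and 4.22), but with 1 blastocyst library left edgeR called no miRNA at all. The call was also lost without PEBs (3.79, adjusted p = 0.0941) and held without ES-like cells (adjusted p = 0.0396) and without PFFs (adjusted p = 0.00358). It passed with every other tool, scaling and filter run, at an adjusted p from 9.92e-05 (DESeq2) to 0.05 after rounding (limma-voom, under the threshold before it). miR-98 had a log2 fold change of 5.08 (SE 1.43, adjusted p = 0.0587), let-7c 3.34 (SE 1.00, adjusted p = 0.0674), let-7d-5p 3.48 (SE 1.06, adjusted p = 0.0693) and let-7d-3p 4.66 (SE 1.43, adjusted p = 0.0696), and none of these passed the threshold of 0.05 in this fit. DESeq2 called these 4 and let-7i, 5 of 9 members against 23.3% of the miRNAs, or 4 of 8 without let-7d-3p, which had entered the test through the cultured libraries alone, and no member lower, against 12.5%. let-7g at 2.34 and let-7f at 2.08 did not pass with either tool. let-7a had a log2 fold change of 0.67 (SE 1.02, adjusted p = 0.621), below the median of 1.23 over all 279 miRNAs, and was -0.40 without the PFF library. let-7e was also near that median, at 1.53. The groups mix cell types, so that the SE includes differences between them, and PEBs were made from the ES-like cells, so that these libraries share a line although they count as separate samples. The p-values measure only the spread between these 5 libraries.

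The same test was applied to PEBs and PFFs against BL_1, BL_2 and ES-like cells. All 9 members had a positive log2 fold change, from 1.54 for let-7a to 4.07 for miR-98, with a median of 2.63 against 0.48 over the 279 miRNAs. None of the 9 was called, as 0.0% of all miRNAs were called higher, and at an unadjusted p under 0.05 edgeR found 5 of 9, against 6.45% of the miRNAs, and none lower, against 3.94%. The 5 depended on the scaling, the tool and the libraries. edgeR found 2 with DESeq2's size factors (23 of 279 miRNAs in either direction). It found 0 with library totals only (14 of 279), without BL_1 (7 of 276) or without BL_2 (13 of 265). Without a filter it found 6 (38 of 327), with the larger precursor row alone 6 (34 of 277) and without ES-like cells 7 of 8 (77 of 227). DESeq2 found 4 (51 of 279) and limma-voom 7 (32 of 279). DESeq2 called 0 of 9 members, against 0.358% of the miRNAs called higher and 4.66% called lower, and limma-voom called none. miR-98 had the lowest p of the members (log2 fold change 4.07, SE 1.29, adjusted p = 0.381 from edgeR), and let-7g followed (2.59, SE 0.88, adjusted p = 0.381). Without the library of ES-like cells, let-7i was called (adjusted p = 0.0396 from edgeR), in what was then a comparison of BLs with PEBs and PFFs (1 of the 8 members that passed the filter, against 4.41% of the 227 miRNAs).

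**Figure D4:**
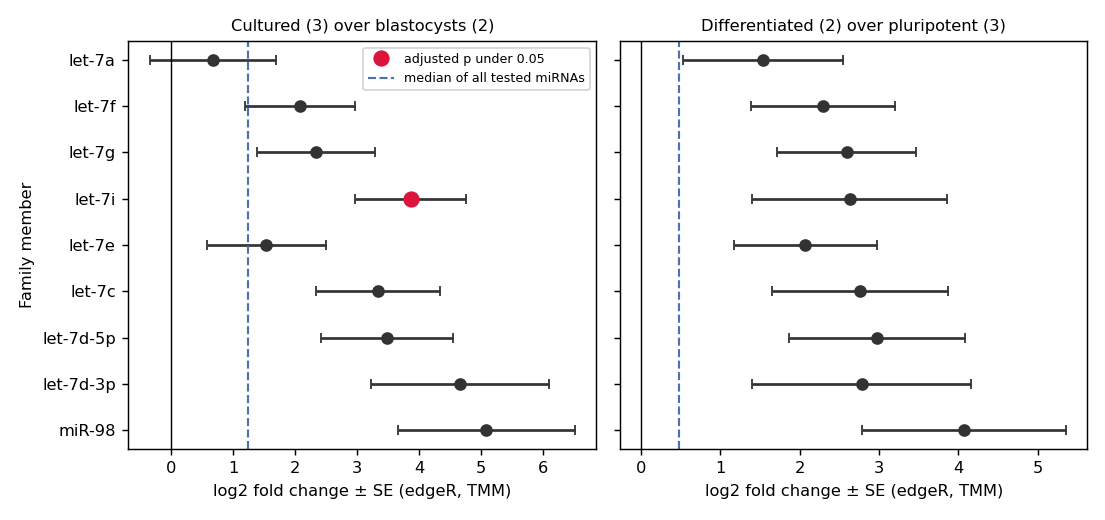
Log2 fold change of each member with its standard error from edgeR's quasi-likelihood test, for the 3 cultured libraries over the 2 blastocyst libraries (left) and for PEBs and PFFs over the 3 pluripotent libraries (right). The dashed lines mark the medians of the 279 miRNAs, 1.23 and 0.48, and the red point is let-7i, the only member with an adjusted p under 0.05.

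The miRNAs listed as neighbours of let-7 genes were 5, miR-99a, miR-99b, miR-100, miR-125a and miR-125b. None of the 5 was called by edgeR in either grouping. The lowest adjusted p was that of miR-125b in cultured cells against blastocysts (log2 fold change 3.67, SE 0.97, adjusted p = 0.0573). Neighbours of 1 cluster did not keep a constant ratio to their let-7 member. For each read of miR-99b, BL_1 and BL_2 had 0.23 and 0.174 reads of let-7e, ES-like cells had 0.0636, PEBs 0.193 and PFFs 0.424. The ratio was lowest in ES-like cells and its highest value was 6.67 times its lowest. For each read of miR-99a, BL_1 and BL_2 had 0.253 and 0.168 reads of let-7c, ES-like cells had 0.43, PEBs 0.879 and PFFs 0.165, so that this ratio peaked in PEBs. For each let-7f read, BL_1 and BL_2 had 0.00331 and 0.00124 reads of miR-98, ES-like cells had 0.00791, PEBs 0.00815 and PFFs 0.027, although let-7f reads may come from 2 loci, only 1 of them beside miR-98.

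Outside the family, the miRNAs whose pattern was most like that of the family total were sought by Pearson's r on log2(RPM + 1) over the 5 libraries, as a description. They were miR-450b-3p (r = 0.971), miR-493-5p (r = 0.965) and miR-424-5p (r = 0.961). All 3 were far less abundant than the family. miR-450b-3p had 0 reads in both blastocyst libraries and 10 in ES-like cells, and miR-493-5p had 1 read in BL_1 and 12 in BL_2, so that their r rests on counts near the floor and on the added 1 RPM. BL_1 and BL_2 had 26.4 and 23.0 RPM of miR-424-5p, ES-like cells had 74.1, PEBs 136 and PFFs 73.1. Of the 270 tested miRNAs outside the family, 14 had an r above 0.9.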

How the data were processed

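Small RNA libraries of 5 samples were analysed. The authors removed short reads and reads lacking an adaptor. Adaptors were cut with Cutadapt, Bowtie was used for alignment, and reported miRNAs were defined with miRDeep2 on miRBase. The submitters' processing notes name cutadapt 1.10, Bowtie 1.1.1 and the build Sscrofa10.2. They deposited raw read counts for each pair of mature miRNA and precursor. Mismatch settings are not given in the sources used here. Columns were assigned through the library names in the labels. 15 per-sample columns of the table of predicted loci were not used.

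Counts were summed over precursors and divided by the library's sum (RPM). Pairs of cell types were compared by ratios and the 2-fold rule, and groups by edgeR 4.0.16 (quasi-likelihood, TMM, Benjamini-Hochberg), with DESeq2 1.42.0 and limma 3.58.1 as alternatives, in R 4.3.3, Python 3.11.15 and scipy 1.17.1. The edgeR step was tested on simulated data. Intervals are Poisson, Wilson or exact binomial at 95%. The members, the 5 neighbours, the marker lists and the rule for alike miRNAs (the 3 highest r) were chosen with earlier results of these data known. Alternatives were other scalings, filters, pseudocounts and thresholds, the larger precursor row, the let-7d-3p arm left out, and omission of single libraries. Mature sequences were not used here.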

Additional observations from a re-analysis of the deposited data

How the results depend on the processing

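In cultured cells against blastocysts, edgeR called 1 member higher, with 5.38% of the miRNAs called higher, and 33 miRNAs in either direction. With DESeq2's size factors it called 2 members (11.5% of miRNAs higher) and 55 in either direction, with library totals only 2 (12.5%) and 57, and without a filter 1 (7.95% of 327) and 51, while DESeq2 called 5 (23.3%) and 100. With single libraries left out, it called from 0 to 4 members and from 0 to 89 miRNAs in either direction (0 without BL_1 or BL_2, 4 and 89 without PFFs with 48 of 229 miRNAs higher, 0 and 3 without PEBs, 1 and 16 without ES-like cells). The log2 fold change of let-7a ran from -0.40 without PFFs, where it reversed, to 1.2 without ES-like cells. In differentiated against pluripotent libraries, edgeR called 0 members and 0 miRNAs, DESeq2 called 0 and 14 (0.358% of miRNAs higher), and omission of libraries gave from 0 to 1 members and from 0 to 16 miRNAs, the highest without ES-like cells. The cause of these changes was not tested. For PFFs over PEBs, the members more than 2-fold higher numbered 0 on RPM, 1 with TMM, 2 with DESeq2's size factors and 1 with the most abundant miRNA left out of the total (14.0, 29.0, 30.5 and 25.4% of all miRNAs). For PFFs over ES-like cells they numbered 4, 8, 8 and 7 (16.1, 37.3, 31.2 and 28.3% of all miRNAs). With a 4-fold threshold on RPM, 0 passed for PEBs over ES-like cells and 1 for PFFs over ES-like cells (4.3 and 8.24% of all miRNAs). With TMM, let-7a, let-7c, let-7d-5p, let-7f and miR-98 exceeded 4-fold for PEBs over ES-like cells. For PFFs over ES-like cells, miR-98, let-7a, let-7e and let-7g did so with TMM. Shares of all miRNAs past 4-fold were counted on RPM only. The family total stayed higher in differentiated and in cultured libraries under each alternative that was run. No paired analysis was possible, since the labels give no pairs of samples. ES-like cells and the PEBs made from them had 1 library each. BL_1, with 1978 family reads, limits what can be said of let-7d-3p and miR-98 in blastocysts.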
